A study of Mus musculus with 4 samples.

Results

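The nude mouse and the BALB/c mouse share a strain background and differ in Foxn1, so the pair of libraries made from them compares mice without a normal thymus with mice of the same background that have one. Single-nucleus RNA sequencing (snRNA-seq) of the lateral septum (LS) counted, in each nucleus, the RNA molecules of every gene by their unique molecular identifiers (UMIs). The series holds 4 libraries of male mice, aged 6 to 8 weeks by the labels and bought at 8 weeks by the study's methods, and the comparison here is between 2 of them: the library labelled BALB/c nude, from Foxn1 knockout descendants of BALB/c, and the library labelled BALB/c, both of batch 2. The other 2 libraries are of the C57BL/6JNifdc strain, called C57J below, of which C57J 1 belonged to batch 1 and C57J 2 to batch 2. Tissue of 3 mice was pooled in each library. After quality limits and removal of predicted doublets, the nude and BALB/c libraries held 12948 and 10913 nuclei, which is 23861 of the 49425 nuclei of the series.

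Foxn1 encodes the transcription factor that builds the thymic epithelium, and mice that lack it are hairless and have few mature T cells. T cells are rare in the brain itself, but their cytokines reach it, and neurons, microglia and other glia carry receptors for several of them. The LS is a nucleus of mostly GABAergic neurons between the hippocampus and the hypothalamus that takes part in anxiety, fear and social behavior. Its oligodendrocytes (OLs) form myelin, their precursors (OPCs) keep dividing in the adult, astrocytes take up transmitter and potassium, and microglia are the resident macrophages.

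With 1 pooled library per genotype there is no replicate, and no test of nude against BALB/c can be made. A difference between the pooled libraries may belong to the genotype, to the mice drawn, to the colony or to the preparation, and these cannot be told apart. The gap between C57J 1 and C57J 2 was therefore printed beside each count as a yardstick of how far 2 libraries of 1 strain lay apart, although that pair also spans both batches. UMIs were summed over the nuclei of each cell class and scaled to CPM, the number of UMIs of a gene in 1000000 UMIs of that class and library. A gene was tested in a class where its mean over the 4 libraries reached 10 CPM with at least 40 UMIs in all, and it was called past 2-fold where the log2 ratio of nude to BALB/c was beyond 1 in size and its exact 95% interval lay on the same side of 0. All intervals cover counting error only. Where 4 values follow each other, the first pair stands for C57J 1 and C57J 2, the third for nude and the last for BALB/c.

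Depth differed between the libraries, and BALB/c was the deepest. Kept nuclei had medians of 5370, 4112, 4512 and 8390 UMIs, and LS neurons had medians of 8028.5, 6462, 6301 and 12575 UMIs. Nuclei were therefore thinned to an equal number of UMIs within each class, 4000 in LS neurons, 3000 in striatal and other neurons, 1500 in astrocytes and OPCs and 1000 in the remaining classes, and shallower nuclei were left out, among them 931 of the 6563 LS neurons of nude and 22 of the 4645 of BALB/c. Thinning equalizes depth but not the RNA that floats free of the nuclei. In OLs, genes whose level, in counts as deposited summed over the libraries, was below 25% of that in their highest class supplied 12%, 13.9%, 17.0% and 7.5% of the UMIs. This share was lowest in BALB/c and highest in nude. RNA free of the nuclei was not measured, and the source of these UMIs was not tested. The same share was 10.8%, 12.9%, 13.6% and 7.7% in astrocytes, and 12.5%, 15.9%, 15.8% and 7.37% in microglia. LS neurons differed little, at 7.67%, 7.53%, 7.49% and 7.29%. Mitochondrial UMIs made up 0.495%, 0.213%, 0.253% and 0.296% of the kept nuclei, so the C57J pair was further apart in this measure than nude and BALB/c. Nude and BALB/c shared 45 cell barcodes.

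The targeted gene could not check the labels. Foxn1 gave 5, 2, 2 and 3 UMIs in all kept nuclei, or 0.0638, 0.0334, 0.0303 and 0.0293 CPM of all kept UMIs, and these intervals overlap. Foxn1 acts in thymic and skin epithelium, so its level in the septum checks nothing. Y-linked genes gave 480, 523, 482 and 416 CPM, so all 4 libraries carried male RNA, as the labels give it. Of the 9 T cell markers, 1.89, 1.80, 1.33 and 1.32 CPM were found, and the nude and BALB/c values were nearly equal. Nuclei with UMIs of at least 2 T cell markers numbered 1, 0, 0 and 1, and a count of 0 allows up to 3. A loss of T cells from the tissue was thus not detectable at this depth. Markers of border macrophages gave 1.35, 1.49, 2.73 and 3.14 CPM, with 3, 0, 1 and 10 nuclei carrying at least 2 of them.

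The cell classes were named from fixed markers, and the markers of each class were found in both libraries. Of 38 clusters 2 were not named, 1 led by C230072F16Rik and Veph1 with 1.69%, 1.96%, 1.47% and 1.93% of the kept nuclei, and 1 led by the ribosomal gene Gm42418 and the heat shock gene Hspa8, with mitochondrial genes behind them, with 0.581%, 2.95%, 2.18% and 0.394%. The summed level of 5 LS neuron markers was 2414 CPM in nude LS neurons against 2338 CPM for BALB/c. That of 7 OL markers was 9983 and 16689 CPM in OLs, that of 6 astrocyte markers 9252 and 12420 CPM in astrocytes, that of 5 OPC markers 7925 and 8228 CPM in OPCs, and that of 7 microglia markers 4694 and 8289 CPM in microglia. Glial markers other than those of OPCs were thus lower in nude, in the same nuclei in which neuronal RNA was higher: 4 neuron markers summed to 3869 CPM in astrocytes of nude against 1780 CPM for BALB/c, to 4758 against 1846 CPM in OLs and to 5718 against 2654 CPM in microglia. In OPCs the neuron markers summed to 3626 CPM in nude against 1804 CPM for BALB/c, although the OPC markers differed little. The part of this neuronal RNA in the results for glia was not tested.

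LS neurons of nude and BALB/c mice were close to each other. Of 9084 genes tested, 9 were higher and 4 lower in nude past 2-fold, which is 0.143%, whereas 99 genes (1.09%) lay past 2-fold between the C57J libraries. Other neurons were similar, with 43 genes higher and 50 lower (0.991%), against 126 (1.34%) between the C57J libraries. Striatal neurons, which were few in both libraries, had 196 higher and 116 lower (3.43%), against 221 (2.43%).

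Glial classes held most of the genes past 2-fold. In OLs, 1083 genes were higher and 196 lower in nude (13.4% of those tested), against 378 (3.97%) between the C57J libraries. Microglia had 632 higher and 352 lower (15.7%, against 288 or 4.6%), astrocytes 606 higher and 132 lower (7.45%, against 206 or 2.08%), neuroblasts and dividing cells 253 higher and 125 lower (7.5%, against 207 or 4.11%) and OPCs 290 higher and 116 lower (4.82%, against 348 or 4.13%). Of the genes higher in nude, 728 in OLs (67.2%), 440 in astrocytes (72.6%), 153 in OPCs (52.8%) and 323 in microglia (51.1%) had a level below 25% of that in their highest class. When only genes at 25% or more of their highest class were counted, 355 were higher and 186 lower in OLs (6.6% of those tested), 166 and 123 in astrocytes (3.3%), 137 and 102 in OPCs (3.15%) and 309 and 347 in microglia (11.7%). Scaling to the UMIs of those genes alone, which moved the log2 ratios up by 0.16 in OLs, 0.14 in microglia and 0.09 in astrocytes, gave 535 higher and 94 lower in OLs, 402 and 206 in microglia and 223 and 91 in astrocytes, and TMM factors gave 882 higher and 331 lower in OLs, so the balance of higher to lower genes in glia depended on the scaling. Of the calls, 8 of 13 in LS neurons, 883 of 1279 in OLs, 630 of 984 in microglia and 537 of 738 in astrocytes were also made in a second thinning and in the counts as deposited, and those are called stable below.

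**Figure D1:**
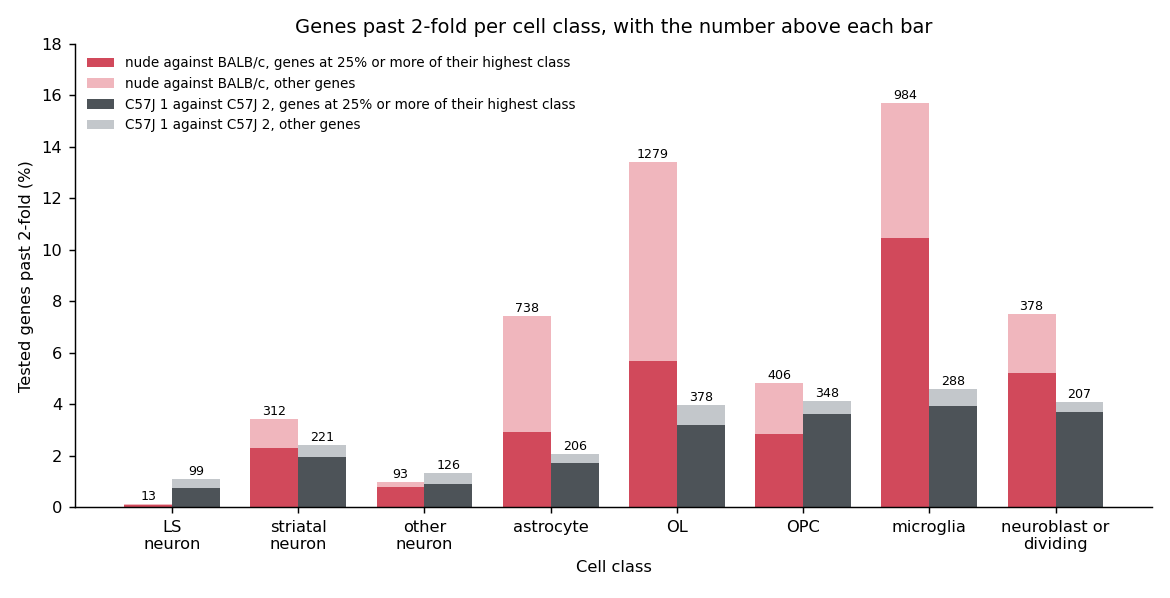
Share of tested genes past 2-fold (vertical axis, %) in each of 8 cell classes (horizontal axis), for nude against BALB/c (red) and for C57J 1 against C57J 2 (grey), with the number of genes above each bar. The dark part of a bar holds genes at 25% or more of their highest class and the light part the other genes. LS neurons have 13 genes past 2-fold between nude and BALB/c against 99 between the C57J libraries, whereas OLs have 1279 against 378.

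One library stood apart from the other 3, by more than 2-fold from each of them, more often when it was BALB/c than when it was nude. In OLs, BALB/c stood apart in 520 genes (5.46%), of which it was the lowest in 473, and nude in 54 (0.567%). In microglia the numbers were 471 (7.53%) and 84 (1.34%), and in astrocytes 296 (2.99%) and 20 (0.202%). LS neurons had 6 such genes for BALB/c (0.0661%) and 3 for nude (0.033%). Some of these genes were below 25% of their highest class. Without those, BALB/c stood apart in 181 genes in OLs, 274 in microglia, 95 in astrocytes and 4 in LS neurons. Nude then stood apart in 40 in OLs, 76 in microglia, 16 in astrocytes and 2 in LS neurons. Of the genes lowest in BALB/c, 137 of 473 remained in OLs, 63 of 259 in astrocytes and 220 of 415 in microglia. Among the genes past 2-fold between nude and BALB/c, BALB/c stood apart in 490 and nude in 40 of 1279 in OLs, in 387 and 54 of 984 in microglia, in 290 and 20 of 738 in astrocytes and in 6 and 3 of 13 in LS neurons.

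Zfp131 had the largest ratio among the LS neuron genes in which nude alone was high. It encodes a zinc finger protein of the BTB family, lies on chromosome 13 (GRCm38, chr13:119765187-119790889, minus strand) and is expressed in all cell classes. In LS neurons its levels were 37.1, 35.9, 218 and 41.3 CPM. Only nude was high, and the other 3 libraries lay close together. The log2 ratio of nude to BALB/c was 2.40 (2.29 to 2.52). Nude was the highest of the 4 libraries in 19 of 19 LS neuron clusters, and Zfp131 UMIs were found in 13.8%, 13.1%, 56.9% and 15.0% of thinned LS neurons. Levels were 31.6, 35.4, 227 and 38.4 CPM in other neurons (log2 ratio 2.56) and 36.8, 37.6, 165 and 42.4 CPM in striatal neurons (1.96). Nuclei of glia showed a smaller gap, with 47.4, 51.0, 88.6 and 33.8 CPM in OLs (1.39), and 40.5, 48.1, 80.2 and 41.2 CPM in astrocytes, where the log2 ratio of 0.96 was not past 2-fold.

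Rreb1, which encodes a zinc finger transcription factor downstream of Ras signalling, was also higher in nude LS neurons and other neurons, with another pattern over the classes. Its levels in LS neurons were 30.1, 27.2, 81.4 and 36.4 CPM, so nude was again the only high library (log2 ratio 1.16, 1.03 to 1.29). In other neurons they were 27.4, 30.7, 71.5 and 25.5 CPM (1.49), but in striatal neurons 185, 97.1, 104 and 166 CPM, where the log2 ratio of -0.68 was not past 2-fold. In OLs they were 16.1, 23.3, 97.9 and 7.44 CPM (3.72, 2.82 to 4.76) and in OPCs 14.5, 21.2, 94.2 and 20 CPM (2.24). Microglia and astrocytes, in which Rreb1 was highest, showed no excess in nude. Its level was 694, 500, 568 and 1097 CPM in microglia and 140, 157, 159 and 168 CPM in astrocytes. Rreb1 UMIs were found in 9.55%, 9.26%, 23.7% and 10.8% of LS neurons. Rreb1 also lies on chromosome 13, but from 37778400 to 37952005, far from Zfp131.

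Luzp1 and Omg were higher in nude, with BALB/c as the low library. Luzp1, a leucine zipper protein of the actin cytoskeleton, had 92.2, 85.6, 74.9 and 29.6 CPM in LS neurons (log2 ratio 1.34, 1.20 to 1.48). BALB/c was the lowest library in 19 of 19 LS neuron clusters, and Luzp1 was past 2-fold in 7 of the 8 classes, with microglia as the exception (84.8, 95.4, 68.0 and 47.0 CPM). Omg, which encodes the oligodendrocyte myelin glycoprotein, had between 16.8 and 19.0 CPM in LS neurons of the other libraries and 7.46 CPM in those of BALB/c (1.17) and 39.7, 50.7, 42.8 and 13.2 CPM in astrocytes (1.70). Omg was past 2-fold in 6 classes and lies within the gene Nf1 on the opposite strand. Nf1 itself, looked up after the values of Omg were seen, had 321, 315, 336 and 315 CPM in LS neurons, so the gap was not shared by the host gene.

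Rph3a and Pogk were lower in nude LS neurons and other neurons. Rph3a, which encodes rabphilin, an effector of Rab3 in vesicle exocytosis, had 68.5, 59.9, 26.0 and 67.0 CPM in LS neurons. Here nude alone was low (log2 ratio -1.37, -1.51 to -1.22), and it was the lowest library in 19 of 19 LS neuron clusters. Other neurons repeated it with 97.8, 83.3, 35.1 and 113 CPM (-1.69), but OLs did not, where nude and BALB/c were nearly equal and below 41.8 and 33.5 CPM of the C57J libraries. In striatal neurons Rph3a had 29.5, 20.2, 14.1 and 12.5 CPM, with nude and BALB/c both low and a log2 ratio of 0.17. Pogk, a KRAB domain gene derived from a pogo transposon, had 11.3, 12.2, 12.9 and 33.4 CPM, so BALB/c was the high library (-1.38, -1.58 to -1.17), and in other neurons 15.4, 12.4, 13.7 and 33.2 CPM (-1.28). In striatal neurons it had 14.6, 15.7, 14.1 and 23.5 CPM, which was not past 2-fold. Egr4, an immediate early transcription factor, had 15.8, 15.0, 12.3 and 25.8 CPM (-1.07), and this call was lost in the second thinning.

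The remaining genes past 2-fold in LS neurons were of less certain origin. Prr5l, at 8.45, 17.9, 11.5 and 3.52 CPM (log2 ratio 1.72), reached 0.43% of its level in OLs, the class in which it was highest, and Lama2, at 12.2, 17.6, 11.5 and 5.03 CPM, reached 1.47% of its level in its highest class. AC149090.1, a gene model with 407, 84.0, 63.3 and 241 CPM (-1.93), was past 2-fold in all 8 classes and lower in nude in each, but the C57J libraries differed in it by a log2 ratio of 2.28. It thus divided C57J 1 and BALB/c from C57J 2 and nude, and a difference of this gene between nude and BALB/c was no larger than that between libraries of 1 strain.

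**Figure D2:**
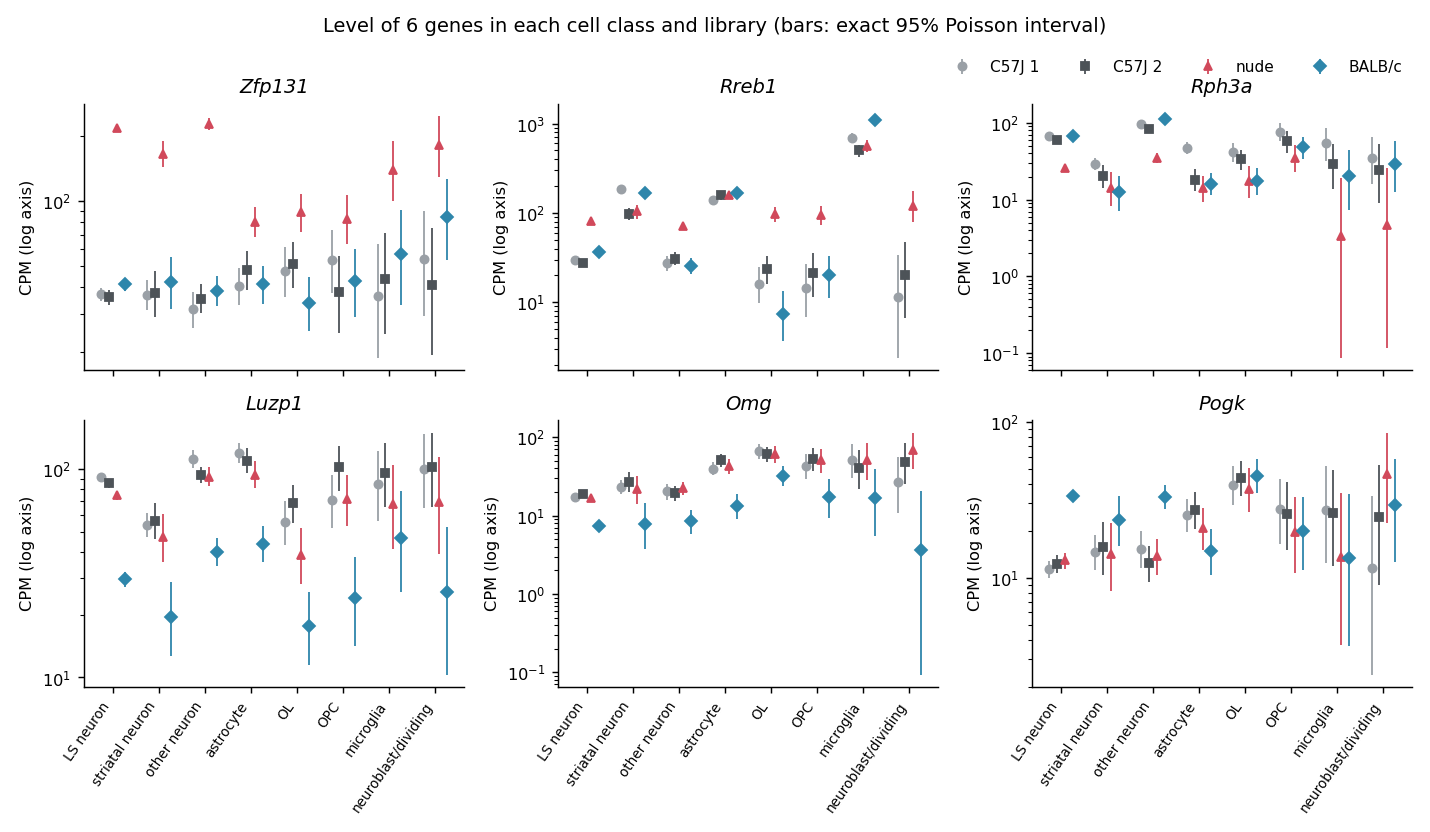
Levels of Zfp131, Rreb1, Rph3a, Luzp1, Omg and Pogk in CPM (vertical axis, logarithmic) in each cell class (horizontal axis) and library, with exact 95% Poisson intervals as bars. Nude is apart for Zfp131 (218 CPM in LS neurons against 35.9 to 41.3 CPM) and Rph3a (26.0 against 59.9 to 68.5 CPM), and BALB/c is apart for Luzp1 (29.6 against 74.9 to 92.2 CPM).

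Lists of septal neuropeptide, receptor and learning genes showed no member past 2-fold in LS neurons, and their medians are given beside the median of all tested genes, -0.02. Of the septal neuropeptides and granins, 8 of 18 were tested and 0 were past 2-fold, with a median log2 ratio of -0.45 (C57J pair 0.26). Among them, Sst, the somatostatin gene, had 39.8, 33.1, 37.9 and 37.7 CPM, Nts, which encodes neurotensin, had 31.3, 26.9, 25.3 and 36.3 CPM, and Scg2, a granin of dense core vesicles, had 35.2, 26.3, 31.6 and 51.1 CPM. Nude lay within the range of the C57J libraries for Sst and Scg2 and BALB/c was the highest for Nts and Scg2. The sex steroid receptors had a median of 0.11 with 0 of 4 past 2-fold, and Esr1, the estrogen receptor alpha, had 12, 13.9, 20.3 and 15.9 CPM. Of the 11 learning and fear genes, which the study chose on these samples, 0 were past 2-fold (median -0.11). Glp1r had 31.6, 24.0, 13.6 and 17.1 CPM and Grm7 had 1742, 1783, 1438 and 1522 CPM, so for both genes the libraries of BALB/c background lay below those of C57J and near each other.

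Of 10 immediate early genes and 10 heat shock genes tested in LS neurons, 1 and 0 were past 2-fold. The background of genes lower in nude past 2-fold in LS neurons was 0.044%. All 10 tested immediate early genes had a lower level in nude than in BALB/c, with a median log2 ratio of -0.55 (C57J pair 0.31), and 1 of them, Egr4, was past 2-fold. Egr1 had 48.8, 40.3, 40.5 and 62.9 CPM, Arc had 22.0, 14.0, 13 and 21.5 CPM, and Npas4 had 17.3, 16.9, 14.4 and 19.3 CPM. Nude was therefore close to C57J 2, and BALB/c was the high library in 5 of the 10. The median of this list was also negative in striatal neurons (-0.21, C57J pair 0.58) and other neurons (-0.24, C57J pair 0.46). It was positive in astrocytes (0.46), OLs (0.55), OPCs (0.08), microglia (0.23) and neuroblasts and dividing cells (0.75). The C57J pair had medians of 0.93, 0.78, 0.41, 0.93 and 0.52 in these classes. These were larger than those of nude and BALB/c except in neuroblasts and dividing cells. The homogenization buffer held actinomycin D, an inhibitor of transcription, but it met the tissue only after perfusion, dissection and freezing. Whether immediate early genes changed in those steps was not tested. Heat shock and protein folding genes had a lower level in nude in 10 of 10 cases, with a median of -0.36 (C57J pair -0.07) and 0 past 2-fold, and BALB/c was the highest library for 8 of the 10. Mitochondrial transcripts had a median of -0.23 between nude and BALB/c with 0 of 11 past 2-fold, whereas the C57J pair had a median of 1.41 with 11 of 11. Ribosomal protein genes had medians between -0.23 and 0.14 over the 8 classes, and the sign turned in OLs with TMM factors (-0.01) and in microglia when scaled to genes at 25% or more of their highest class (0.02).

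Outside the LS, other neurons, which hold the cholinergic and remaining septal neurons, had Sln as the gene with the largest fall. Sln, which encodes sarcolipin, an inhibitor of the SERCA calcium pump, had 7.54, 12, 1.63 and 20.1 CPM (log2 ratio -3.63, -4.99 to -2.52), and nude was below BALB/c in 5 of 5 clusters. Heg1, a receptor of vascular junctions, had 50.3, 67.1, 21.4 and 105 CPM (-2.29) and Ctxn3 had 15.1, 19.2, 6.97 and 34.0 CPM (-2.29). Heg1 was lower in nude in only 3 of 5 clusters, as was Ctxn3, and 2 of these clusters held different shares of the class, 19.1% and 24.7% for Casz1 Gbx1 and 14.9% and 19.1% for Ebf2 Ebf3 in nude and BALB/c. With the clusters weighted equally, 60 in place of 93 genes were past 2-fold. Spag16, a gene of the ciliary axoneme, was higher in nude at 36.6, 26.1, 45.5 and 16.1 CPM (1.498).

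Striatal neurons were few, with 486 nuclei in nude and 427 in BALB/c. Adora2a, an adenosine receptor that marks indirect pathway neurons, had 19.8, 34.8, 4.15 and 22.7 CPM (log2 ratio -2.46, -4.18 to -1.07). The cluster led by Rarb and Prkch made up 51.4% of striatal neurons in nude and 66.7% in BALB/c, and the one led by 6530403H02Rik and Gm49906 made up 41.4% and 26.9%, so the levels of this class moved together with its makeup, and the part of the makeup was not tested. St8sia6, a sialyltransferase, was higher in nude, at 14.6, 15.7, 27.4 and 3.14 CPM (3.13). Of the 312 calls, 91 were stable.

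Beside AC149090.1, Luzp1, Zfp131 and Omg, the genes past 2-fold in many classes were mostly neuronal genes seen in glia. In 5 or more classes 39 genes were past 2-fold, of which 38 were higher in nude, and 33 of these 38 had a neuron class as their highest class. For 25 of the 38, none of the classes in which they were called was a neuron class. Trpc4, a calcium channel of LS neurons, had 828, 835, 832 and 791 CPM in LS neurons, nearly equal in all libraries. In OLs it had 143, 208, 291 and 66.3 CPM (log2 ratio 2.13), in astrocytes 117, 177, 195 and 61.2 CPM (1.67) and in microglia 170, 263, 350 and 107 CPM (1.71). Prlr, the prolactin receptor, had 113, 122, 147 and 132 CPM in LS neurons and 42.4, 46.2, 95.2 and 6.71 CPM in microglia (3.83). Gpc3, a glypican, Cpa6, a carboxypeptidase, and the non-coding Gm32647 and A330008L17Rik were past 2-fold in glia as well. For all 6 genes the summed level of BALB/c was the lowest in OLs, astrocytes and microglia, although for Prlr in OLs and astrocytes it was level with C57J 1, and nude was the highest in OLs and astrocytes, while in microglia C57J 2 was the highest for Gpc3, Cpa6 and Gm32647. BALB/c was also the library with the lowest share of UMIs from genes below 25% of their highest class. UMIs of these 6 genes enter that share wherever they fall below this limit, so it is not independent of them.

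OLs also held genes that were high in BALB/c. Pcdh11x, a protocadherin on the X chromosome, had 469, 387, 310 and 2186 CPM in OLs (log2 ratio -2.82, -2.98 to -2.65), and BALB/c alone was high. Pcdh11x UMIs were found in 33.8%, 30.6%, 25.1% and 69.9% of OLs thinned to 1000 UMIs. Microglia thinned to the same depth had them in 14.5%, 17.1%, 16.3% and 6.38%, with BALB/c as the lowest. In LS neurons Pcdh11x had 277, 294, 297 and 240 CPM, and in OPCs 1119, 964, 667 and 812 CPM, with neither past 2-fold. Itgad, an integrin subunit, had 24.1, 11.7, 12.9 and 91.3 CPM (-2.82), Col23a1, a transmembrane collagen, had 24.1, 31.3, 18.5 and 105 CPM (-2.51), and Fam83d had 13.7, 8.74, 7.39 and 54.1 CPM (-2.87). Nude lay near the C57J libraries for all 4 genes. Zfand4, chosen after its values were seen, had 39.4, 31.3, 51.7 and 231 CPM (-2.16). Ndst4, a heparan sulfate sulfotransferase, differed, since both libraries of BALB/c background were high, with 30.5, 51.0, 211 and 466 CPM (-1.15).

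Myelin genes lay lower in nude OLs. All 18 were tested, 0 were higher and 4 lower past 2-fold (2.06% of all tested genes were lower), and 17 of 18 had a lower level in nude than in BALB/c. The median log2 ratio was -0.62, against 0.10 for all tested genes and 0.08 for the C57J pair, and it was -0.46 when scaled to genes at 25% or more of their highest class. Ermn, which encodes ermin of the myelin sheath, had 105, 94.7, 92.3 and 236 CPM (-1.36, -1.69 to -1.03), with BALB/c alone high. Mal, a proteolipid of compact myelin, had 713, 736, 428 and 950 CPM (-1.15, -1.31 to -0.999), Cnp, the cyclic nucleotide phosphodiesterase of myelin, had 197, 140, 115 and 256 CPM (-1.15), and Gjc3, a connexin, had 391, 367, 255 and 528 CPM (-1.05). In these 3 genes nude was the lowest library and BALB/c the highest. Mbp, the myelin basic protein, stayed within 2-fold, with 3353, 3208, 2674 and 4076 CPM (-0.61). Opalin was the exception, at 271, 314, 133 and 123 CPM, low in both libraries of BALB/c background. Over the list, nude was the lowest library for 16 genes and BALB/c the highest for 13. The share of UMIs from genes below 25% of their highest class was 17.0% in nude OLs and 7.5% in those of BALB/c.

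Astrocytes of BALB/c mice were marked by Pde10a. This gene encodes a phosphodiesterase known for its high level in striatal neurons. In astrocytes it had 116, 110, 133 and 1358 CPM (log2 ratio -3.35, -3.53 to -3.17). BALB/c alone was high, in both astrocyte clusters (149 and 1571 CPM in nude and BALB/c in the larger, 113 and 594 CPM in the smaller). Pde10a UMIs were found in 15.2%, 14.9%, 17.8% and 61.5% of astrocytes thinned to 1500 UMIs, whereas OLs thinned to 1000 UMIs had them in 13.4%, 13.2%, 14.4% and 7.98% and microglia in 13%, 14.2%, 12.6% and 8.39%. Striatal neurons had 1250, 1285, 949 and 1191 CPM and LS neurons 451, 420, 484 and 583 CPM. Ramp2, an accessory protein of calcitonin family receptors, had 7.80, 6.59, 3.89 and 24.7 CPM (-2.66), Dapk2, a death-associated kinase, had 1.49, 3.04, 7.29 and 43.8 CPM (-2.59), and 4933432K03Rik had 7.43, 5.07, 5.35 and 37.0 CPM (-2.79). BALB/c was the high library for these 3 genes too. On the higher side, Klhl1 and Scn9a, whose astrocyte levels were 5.69% and 10.4% of those in their highest class, had 24.3 and 38.9 CPM in nude and 3.40 and 7.23 CPM in BALB/c.

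Several glucocorticoid-responsive genes were lower in nude glia, and they also differed within the C57J pair. In astrocytes, 16 were tested, 0 were higher and 7 lower (1.33% of all tested genes were lower), all 7 stable, with a median log2 ratio of -0.84 (all tested genes 0.06). Fkbp5, a chaperone that dampens the glucocorticoid receptor, had 57.6, 25.3, 75.9 and 216 CPM (-1.51), and Mt1, a metallothionein, had 625, 260, 255 and 731 CPM (-1.52). Zbtb16, a zinc finger repressor, had 134, 90.2, 92.4 and 269 CPM (-1.54). BALB/c was the highest library for 10 of 16, and C57J 1 lay above C57J 2 with a median of 0.64 and 5 genes past 2-fold. In OLs, 8 of 16 were lower (2.06% of all tested genes were lower), with a median of -0.995 (all tested genes 0.10). Among them were Plin4, a coat protein of lipid droplets, with 26.5, 8.01, 25.9 and 118 CPM (-2.19), and Errfi1, an inhibitor of the epidermal growth factor receptor, with 90.8, 38.6, 53.6 and 158 CPM (-1.56). The C57J pair had a median of 0.96 with 8 past 2-fold in OLs, so libraries of 1 strain lay about as far apart on this list as nude and BALB/c. Microglia had 4 of 10 lower, 3 of them stable (median -0.725), where 5.62% of all tested genes were lower. The C57J pair had a median of 1.01 there with 5 past 2-fold. OPCs had 1 of 11 lower, a call that was not stable (median -0.344), where 116 of all 8424 tested genes were lower. The C57J pair had 0.781 in OPCs with 5 past 2-fold. In LS neurons the median was -0.03 with 0 of 10 past 2-fold.

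Other astrocyte lists had fewer members past 2-fold. Of 14 transport and junction genes, 14 had a lower level in nude and 1 was past 2-fold (median -0.38). This was Gjb6, which encodes connexin 30, with 192, 100, 116 and 241 CPM (-1.06). The 19 genes of cholesterol synthesis had a median of -0.51 with 0 past 2-fold, and nude was the lowest library for 14 of them. In OLs the median of this list was 0.10, equal to that of all tested genes. Of 15 astrocyte reactivity genes, only 3 were tested and 0 were past 2-fold. Npas2, a partner of the clock protein BMAL1, had 173, 135, 106 and 314 CPM in astrocytes (-1.57) and was lower in nude in both astrocyte clusters, whereas in OLs it had 26.5, 30.6, 42.5 and 15.6 CPM (1.45). Of the clock list, Npas2 included, 18 genes were tested in astrocytes, of which 2 were higher and 1 lower past 2-fold (median -0.01), and 15 in LS neurons with 0 past 2-fold (0.14). Of all 9911 genes tested in astrocytes, 606 were higher and 132 lower.

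Microglia of nude mice had lower levels of several genes that microglia use to sense their surroundings. All 13 homeostatic genes had a lower level in nude than in BALB/c and 5 were past 2-fold (5.62% of all tested genes were lower), 3 of them stable, with a median log2 ratio of -0.92 (all tested genes -0.07, C57J pair 0.18). Scaled to genes at 25% or more of their highest class the median was -0.78. Tmem119, a membrane marker of resident microglia, had 215, 110, 133 and 369 CPM (-1.48, -2.04 to -0.94), and Cx3cr1, the fractalkine receptor, had 715, 529, 537 and 1094 CPM (-1.03). P2ry13, a purine receptor, had 63.6, 63.6, 44.2 and 111 CPM (-1.32). BALB/c was the highest library for 10 of the 13 and nude the lowest for 9. Fcrls, an Fc receptor-like gene, was low in both libraries of BALB/c background, with 312, 332, 54.4 and 117 CPM (-1.11).

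The complement genes C1qa, C1qb and C1qc, whose product tags synapses for removal, were lower in nude microglia. C1qa had 294, 205, 204 and 705 CPM (log2 ratio -1.79, -2.23 to -1.37), C1qb had 324, 168, 88.4 and 326 CPM (-1.88) and C1qc had 291, 139, 88.4 and 326 CPM (-1.88). All 3 calls were stable, and nude was the lowest library for each gene. C57J 2 was next to it for C1qa, and BALB/c and C57J 1 were nearly equal for C1qb. They were the 3 of 6 tested activated microglia genes past 2-fold (median -1.33), where 5.62% of all tested genes were lower. The C57J pair had a median of 0.72 on that list. The microglia class of BALB/c also held more RNA of border macrophages, whose 5 markers summed to 78.8, 8.67, 6.80 and 185 CPM, with 4 of them at 0 in nude and 0 of them at 0 in BALB/c. The part of those cells, and of neuronal RNA, in the microglia results was not tested.

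T cells release cytokines, and 5 receptor and signalling genes for them were lower in nude microglia. Of 28 receptors and signalling genes, 18 were tested in microglia, with 0 higher and 5 lower (3 stable), and 16 of 18 had a lower level in nude. The median was -0.80 (C57J pair 0.07). Tnfrsf1b, a receptor of tumor necrosis factor, had 75.8, 72.3, 27.2 and 107 CPM (log2 ratio -1.98, -3.31 to -0.83), Il6ra, the interleukin 6 receptor, had 233, 191, 211 and 557 CPM (-1.40), and Il17ra, the interleukin 17 receptor, had 66.7, 46.2, 37.4 and 94.0 CPM (-1.33). Nude was the lowest library for Tnfrsf1b and Il17ra, and for Il6ra nude lay among the C57J libraries and BALB/c was high. Ifngr1, the interferon gamma receptor, had 109, 104, 68.0 and 161 CPM (-1.24), and Tgfbr1, a receptor of transforming growth factor beta, had 1630, 1329, 1316 and 2654 CPM (-1.01). Neither of these calls was stable. Tgfbr1 is also a member of the homeostatic list and is 1 of the 5 genes past 2-fold there. The 5 calls of the cytokine list were all lower in nude, as were 352 of 6259 tested genes in microglia (5.62%). In either direction 984 genes (15.7%) were past 2-fold. Striatal neurons had 1 of 9 past 2-fold, Il1rap, which was higher in nude and not stable (196 of all 9085 tested genes were higher). In LS neurons the median of the list was -0.02 with 0 of 11 past 2-fold, and in astrocytes it was -0.0047 with 0 of 12. The difference between microglia and neurons was not tested.

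Antigen presentation and interferon genes had few members past 2-fold. Of the 16 genes of MHC class I and antigen presentation, 0 of 5 tested were past 2-fold in microglia (median -0.63, C57J pair 0.48), 0 of 8 in astrocytes (-0.06) and 0 of 2 in LS neurons (-0.33). In striatal neurons 1 of 3 was higher, B2m, the light chain of MHC class I, with 16.1, 15.2, 9.95 and 2.35 CPM, a call that was not stable. Of all 9085 genes tested in striatal neurons, 196 were higher. Interferon response genes, of which 1 to 8 of 25 were tested in a class, had 1 of 5 past 2-fold and lower in OLs and 1 of 6 past 2-fold and higher in OPCs, and neither call was stable. The latter was Stat2, with 13, 15.2, 26.7 and 9.33 CPM. Of all tested genes, 2.06% were lower in OLs and 290 of 8424 were higher in OPCs. Of 12 complement and pruning genes, the 3 past 2-fold in microglia were the C1q genes, and 0 of 4 were past 2-fold in LS neurons (median -0.10).

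**Figure D3:**
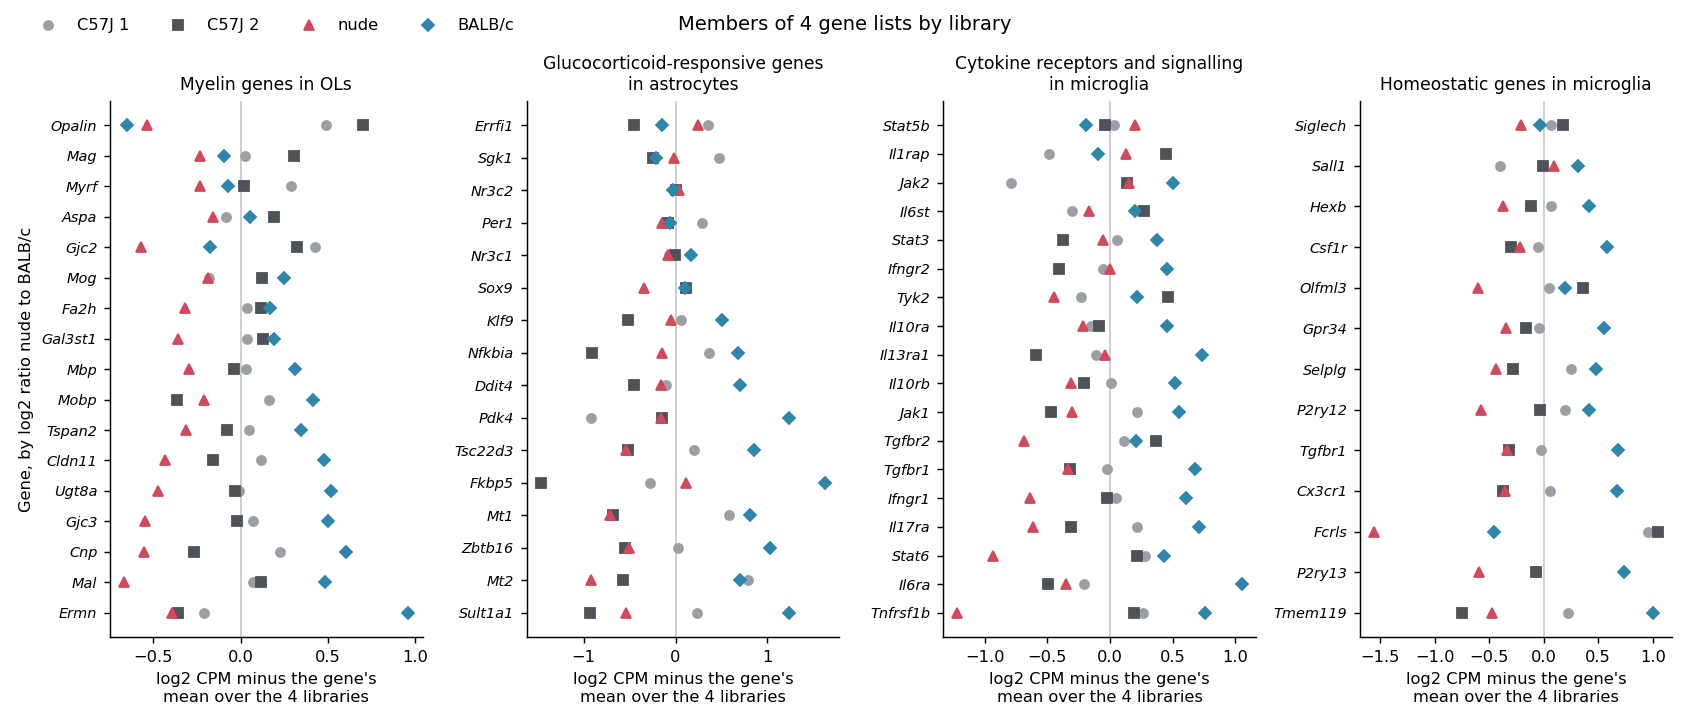
Members of 4 gene lists (rows, ordered by the log2 ratio of nude to BALB/c) in OLs (myelin), astrocytes (glucocorticoid response) and microglia (cytokine receptors and homeostatic genes), plotted as log2 CPM minus the gene's mean over the 4 libraries (horizontal axis), with a point per library. Nude lies left of BALB/c for 16 of the 17 myelin genes drawn, 13 of 16 glucocorticoid genes, 16 of 18 cytokine receptor genes and 13 of 13 homeostatic genes.

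Single genes also differed in microglia, at low counts. Arhgap15, a Rac GTPase activator of blood-derived cells and microglia, had 54.5, 20.2, 3.40 and 63.8 CPM (log2 ratio -4.23, -9.61 to -1.58), and BC035044 had 63.6, 28.9, 10.2 and 154 CPM (-3.92). Both calls were stable, and nude was the lowest library for both, with C57J 1 near BALB/c for Arhgap15 and between nude and BALB/c for BC035044. Per1, a clock gene that glucocorticoids also induce, had 48.5, 26.0, 6.80 and 57 CPM (-3.07). The microglia class rests on 294 nude and 298 BALB/c nuclei after thinning, so 3.40 CPM is 1 UMI.

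OPCs and neuroblasts gave few genes that were stable, 149 of 406 and 142 of 378. A330093E20Rik, a non-coding gene, was the clearest in OPCs, with 2.89, 3.03, 4.22 and 52.0 CPM (log2 ratio -3.62, -5.96 to -1.97). Its UMIs were found in 0.434%, 0.455%, 0.633% and 6.20% of OPCs thinned to 1500 UMIs, and in 1 of 294 nude and 0 of 298 BALB/c microglia thinned to 1000 UMIs, which allows up to 1.01%. Sh3pxd2a, an adaptor of podosomes, with 22.5 CPM in nude and 2.67 in BALB/c (3.08), and Htr7, a serotonin receptor, with 21.1 and 2.67 CPM (2.98), were higher in nude, at 9.39% and 12.7% of the level in their highest class. In neuroblasts and dividing cells, the GABA receptor subunits Gabrg1 and Gabra3 were higher in nude, with 65.4, 142, 130 and 14.7 CPM (3.15) and 69.2, 56.9, 79.1 and 11 CPM (2.85). Zbtb18, a repressor of neuronal differentiation genes, was lower, at 53.8, 32.5, 14.0 and 87.9 CPM (-2.66). Hsph1, a heat shock protein, was past 2-fold after thinning (-2.83) and had a log2 ratio of -0.21 as deposited.

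The knocked-out locus lies on chromosome 11, and alleles linked to it can differ between a mutant stock and its parent strain. The share of genes past 2-fold was lower near Foxn1 than elsewhere in 5 of 8 classes, which were other neurons, astrocytes, OLs, microglia and neuroblasts, for a window of 10 Mb to each side. It was lower in 3 of 8 classes for 5 Mb, where astrocytes (8.75% against 7.44%) and other neurons (1.2% against 0.989%) turned, and in 6 of 8 for 20 Mb, where OPCs turned (3.8% against 4.85%). Within 10 Mb to each side, 1 of 172 tested genes was past 2-fold in LS neurons (0.581%, 0.0147 to 3.20), against 0.135% elsewhere, and this gene was Omg, 1.11 Mb from Foxn1. In OLs, 22 of 189 genes (11.6%, 7.44 to 17.1) lay past 2-fold near Foxn1 against 13.5% elsewhere, in astrocytes 11 of 190 (5.79%, 2.93 to 10.1) against 7.48%, and in microglia 8.94% (4.55 to 15.4) against 15.9%. Striatal neurons had 5.17% against 3.4%, OPCs 5.56% against 4.81%, other neurons 0.549% against 1.0% and neuroblasts 3.81% against 7.58%. Of the neighbours with the largest ratios, Rtn4rl1, a Nogo receptor family member, 3.09 Mb on the other side of Foxn1 from Omg, had 19.3, 16.0, 23.1 and 3.38 CPM in OLs (2.77). Ntn1, the guidance cue netrin 1, had 9.65, 14.6, 20.3 and 2.03 CPM there (3.32), and both were at under 10% of the level in their highest class. Supt4a, a transcription elongation factor at 9.35 Mb, had 27.3, 15.3, 5.54 and 23.7 CPM in OLs (-2.10), where nude alone was low.

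**Figure D4:**
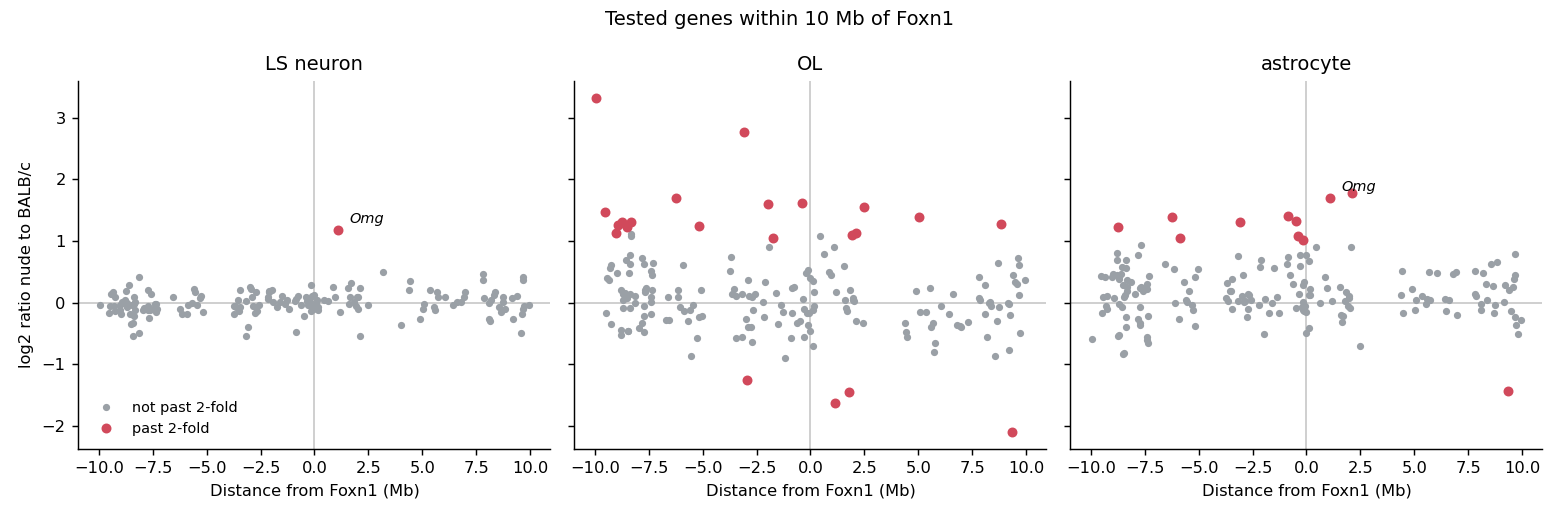
The log2 ratio of nude to BALB/c (vertical axis) of every tested gene within 10 Mb of Foxn1 (horizontal axis, distance in Mb) in LS neurons, OLs and astrocytes, with genes past 2-fold marked. In LS neurons only Omg, 1.11 Mb away, is past 2-fold, and in OLs 22 of 189 genes are.

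The share of nuclei in a class is a count of nuclei that reached the library, which depends on the dissection and on which nuclei survive isolation as well as on the tissue. LS neurons made up 44.4%, 44.1%, 52.6% and 43.6% of the nuclei in named clusters, and nude alone was high (log2 ratio 0.27, 0.22 to 0.33, C57J pair 0.01). Among neurons alone the ratio was 0.0674. OLs made up 9.88%, 11.7%, 8.97% and 13.9%, so nude was the lowest library and BALB/c the highest (-0.63, -0.75 to -0.52, C57J pair -0.25). Astrocytes made up 14.7%, 13.1%, 12.6% and 14.8% (-0.22) and OPCs 3.63%, 3.84%, 3.98% and 4.69% (-0.24). Within non-neuronal nuclei alone the log2 ratio was 0.15 for astrocytes, 0.14 for OPCs and -0.25 for OLs, so the lower shares of astrocytes and OPCs in nude turned into higher ones when neurons were not in the denominator, and that of OLs did not. Microglia made up 2.61%, 3.41%, 2.65% and 2.81%, a ratio of -0.08 whose interval includes 0 and which was 0.30 within non-neuronal nuclei. Fibroblasts were found in 8, 10, 13 and 42 nuclei (-1.92), most of them in BALB/c.

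Shares of 19 LS neuron clusters, named by their 2 leading genes, had log2 ratios of similar size in both pairs of libraries. The median size of the log2 ratio was 0.36 in both pairs, and the interval excluded 0 for 10 of 19 clusters in both. Genes that differed between nude and BALB/c in at least 2 classes were left out of the clustering. Those that differed only between the C57J libraries were not left out for that, so the pairs were not treated alike. How far this changed the comparison was not tested. The cluster led by Sema3a and Tmem132c made up 3.32%, 2.92%, 3.25% and 6.01% of LS neurons (log2 ratio -0.89, -1.15 to -0.63, C57J pair 0.18), so BALB/c was high and nude within the range of the C57J libraries. The cluster led by Hmcn1 and Col15a1 made up 11.7%, 11.9%, 9.92% and 7.34% (0.43, C57J pair -0.03), with BALB/c as the lowest. The cluster led by Esr1, the estrogen receptor alpha, and Calcr, the calcitonin receptor, made up 6.47%, 8.60%, 10.3% and 7.69% (0.42, C57J pair -0.41), with nude as the highest, and at a finer clustering this ratio was 0.21. The cluster led by Cdh23 and Vwa5b1 made up 5.56%, 3.90%, 7.05% and 4.76% (0.57), and here the C57J pair differed by 0.51. The clusters with a share of nuclei that differed more than in the C57J pair numbered 12 of 19.

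**Figure D5:**
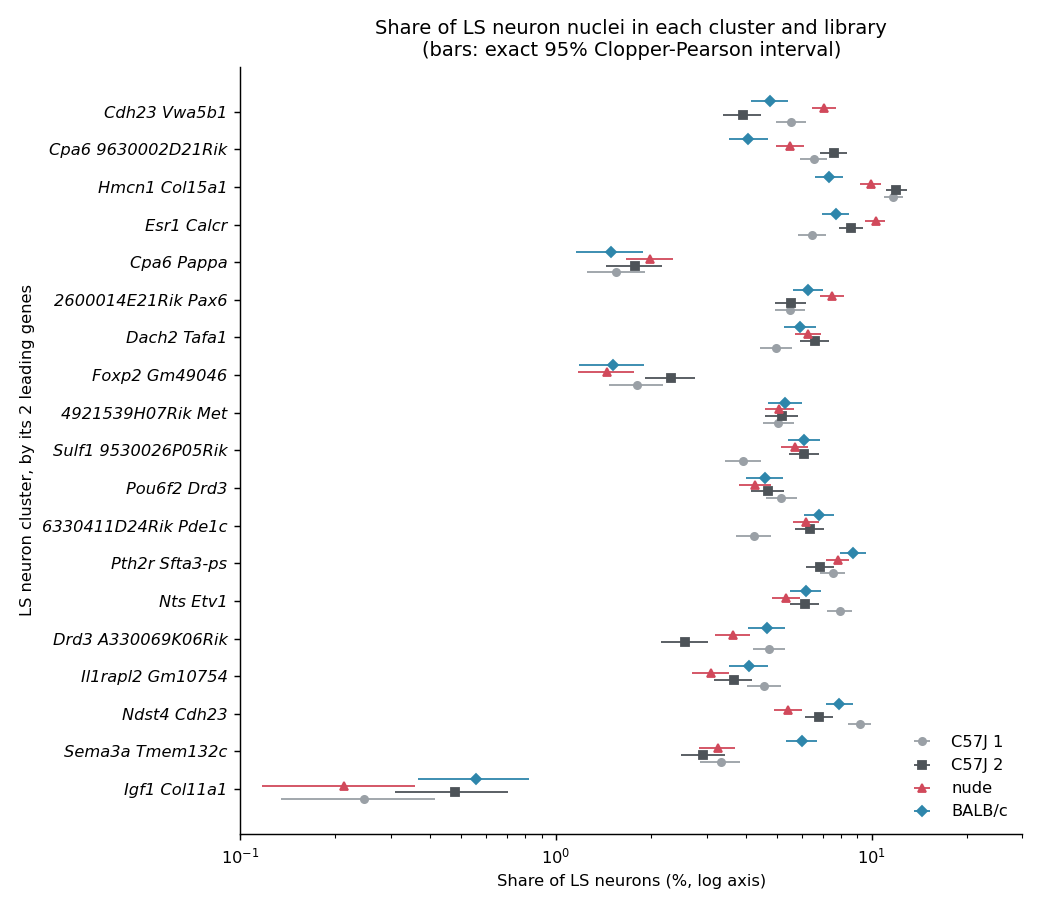
Share of LS neuron nuclei (horizontal axis, %, logarithmic) in each of 19 clusters (rows, named by their 2 leading genes) and library, with exact 95% Clopper-Pearson intervals. BALB/c is apart in the cluster led by Sema3a and Tmem132c (6.01% against 2.92% to 3.32%), and in 12 of 19 clusters the ratio of nude to BALB/c is larger than that of the C57J libraries.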

How the data were processed

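Nuclei came from fresh-frozen LS tissue homogenized in a buffer with actinomycin D, and libraries were made with the 10x Genomics 3' chemistry. Reads had been aligned by the authors with Cell Ranger 7.0.1 (build mm10, per the labels). What they deposited for each library is a matrix of raw UMI counts for 32285 genes, without normalization. C57J 1, C57J 2, nude and BALB/c held 102939576, 72912922, 82169638 and 125998527 UMIs in 17025, 14092, 14697 and 12558 barcodes.

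The study's limits on genes, UMIs and mitochondrial share were applied to these counts: a barcode was kept between 200 and 6000 genes (both excluded), between 300 and 50000 UMIs and with mitochondrial UMIs below 2% of its total. The study's further limit on the ratio of log UMIs to log genes was not applied. Predicted doublets (1761, 1585, 1722 and 1167) were removed by similarity to 2 simulated doublets per nucleus. The libraries were clustered together (leidenalg 0.10.2, resolution 1, 40 components of 3000 variable genes, 6 neighbours from each library) without 346 genes of the lists and without 244 genes that differed between libraries, which gave 38 clusters. Those 244 genes differed, in at least 2 classes, between nude and BALB/c or between the libraries of BALB/c background and those of C57J. Genes that differed only between C57J 1 and C57J 2 were not left out for that. Clusters were named from markers, with limits set after seeing the clusters. For non-neuronal classes at least 3 markers had to be found. Clusters high in neuron markers were called striatal by the striatal markers. The others were called LS neurons at 400 CPM or more of Trpc4, without further LS markers, and other neurons below it. Raw UMIs were summed per class and library after thinning. Ratios carry exact 95% intervals, and a count of 0 was replaced by a floor of 3 counts per library. The call rule was checked on simulated counts. Gene positions were read from GENCODE vM21 (GRCm38).

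No test was made, since each genotype has 1 library. Named genes were Foxn1 and sex-linked genes, in each class the 4 highest and 4 lowest past 2-fold whose C57J gap was under 50% of the ratio, the 12 past 2-fold in most classes, up to 4 members of each list past 2-fold, and 8 near Foxn1. Other genes were named after their values were seen: members of lists that were not past 2-fold, Zfand4, Nf1, Tgfbr1, Il1rap, and the named genes in further classes. The members of this comparison and the gene lists were chosen with earlier results of these data known. The limit of 25% of the highest class and the stability of calls over repeats were added after seeing the data. Alternatives included TMM factors of edgeR 4.0.16 and size factors of DESeq2 1.42.0. Values of some list members are not reported here.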

Additional observations from a re-analysis of the deposited data

How the results depend on the processing

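No paired analysis was possible because nude and BALB/c have 1 library each. No result has a replicate, so the alternatives show how far a value moves with the processing, not how far it would move between mice. The number of genes past 2-fold between nude and BALB/c moved by over 1.5 times in 45 of 132 alternatives, the 148 alternatives of the shares moved them in 10 and turned 2 ratios whose interval excluded 0, the 390 alternatives of list medians moved them in 21 and turned in 5, and of 402 values of named genes 34 no longer passed 2-fold and 0 turned.

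For LS neurons the count of 13 became 55 at 500 UMIs per nucleus, 477 with no filter on low counts, 5 with a mean of 30 CPM and 100 UMIs, 242 at a log2 limit of 0.5, and 8 each with genes at 25% or more of their highest class, with those genes and scaling to their UMIs, and for stable calls. In striatal neurons 312 became 170 as deposited, 207 at 500 UMIs, 511 with no filter, 61 with the stricter filter, 810 at the limit of 0.5 and 91 for stable calls. In other neurons 93 became 47 as deposited, 219 at 500 UMIs, 482 with no filter, 36 with the stricter filter, 758 at the limit of 0.5, 45 for stable calls and 60 with clusters weighted equally. In astrocytes 738 became 1195 with no filter, 402 with the stricter filter, 2026 at the limit of 0.5, and 289 and 314 for genes at 25% or more of their highest class without and with their own scaling. In OLs 1279 became 704 with the stricter filter, 2361 at the limit of 0.5, and 541 and 629 for those genes. In OPCs 406 became 249 at 500 UMIs, 158 with the stricter filter, 907 at the limit of 0.5, 239 and 244 for those genes and 149 for stable calls. In microglia 984 became 574 with the stricter filter, 1511 at the limit of 0.5, 608 for those genes with their own scaling, 630 for stable calls and 23 with doublets kept, where most microglia clustered with nuclei marked as doublets and 67 nuclei were left in the class. In neuroblasts and dividing cells 378 became 619 as deposited, 251 at 500 UMIs, 177 with the stricter filter, 643 at the limit of 0.5 and 142 for stable calls. The stricter filter and the restriction to genes of a class test fewer genes, and the lower limit calls smaller ratios. The cause of the other moves was not tested.

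With neurons or non-neuronal nuclei as the denominator, the log2 ratio of the share was 0.0674 for LS neurons, -0.24 for striatal neurons, -0.18 for other neurons, 0.15 for astrocytes and 0.14 for OPCs (both turned), -0.25 for OLs, 0.30 for microglia and -0.17 for neuroblasts. The ratios of other neurons (0.03 before) and microglia (-0.08 before), whose intervals had included 0, changed sign as well. At resolution 2 the ratio was -0.34 for striatal neurons, 0.21 for the cluster led by Esr1 and Calcr and 0.0884 for that led by Pth2r and Sfta3-ps, and with a second clustering seed it was -0.52 for that led by Sulf1 and 9530026P05Rik. List medians that turned were, as deposited, those of interferon response genes (-1.11) and cholesterol synthesis genes (-0.13) in neuroblasts and of immediate early genes in microglia (-0.0057), those of ribosomal protein genes in OLs with TMM factors (-0.0117), and in microglia when scaled to genes at 25% or more of their highest class (0.0230), where the median of homeostatic microglia genes moved to -0.778. Without C57J replicate 1 or 2, the genes in which nude stood apart over the 8 classes, 328 with all libraries, numbered 561 to 901, and those of BALB/c, 1710 with all libraries, 2214 to 2823, since each library then has 1 fewer to stand apart from. The share past 2-fold near Foxn1 in striatal neurons was 2.31% as deposited.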
